A study of Mus musculus with 8 samples.

Results

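Cytoplasmic ribosomal protein genes were followed in mouse embryonic stem cells (mESCs) and in pancreatic islet-like endocrine cells (PILECs) made from them. Genes were chosen by name, from array symbols that start with Rpl or Rps and a digit, together with Rplp0, Rplp1, Rplp2 and Rpsa. Kinases of the Rps6k family, pseudogene symbols and probe sets that list several symbols were left out. The rule took 50 of the 18193 genes with a usable probe set, and the brightest probe set of a gene, by its mean over the 8 arrays, stood for it. They were 20 proteins of the large subunit, 21 of the small subunit, 2 proteins of the P stalk (Rplp0 and Rplp2), 6 paralogues (Rpl3l, Rpl7l1, Rpl22l1, Rpl39l, Rps27l and Rps4l) and Rps19bp1. The last fits the name rule but encodes a nucleolar binding partner of Rps19 and not a ribosomal protein. A further 31 symbols that meet the name rule occurred only on probe sets with several symbols and are not described here.

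Ribosomal proteins assemble with ribosomal RNA into the small subunit, which reads the mRNA, and the large subunit, which joins amino acids. Their mRNAs are among the most abundant in growing cells, and most carry a 5′ terminal oligopyrimidine (5′ TOP) start that places their translation under control of mTOR signalling. Some have paralogues whose expression is restricted to certain tissues, so that the make-up of ribosomes can differ between cell types. Embryonic stem cells divide fast, and ribosome production is known to fall as they differentiate.

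There were 4 groups of 2 arrays, all of the genetic background 129S6/SvEvTac. Wild-type mESCs were of the line TC1 and menin-null (Men1-KO) mESCs of the line 3.2N, and wild-type and menin-null PILECs were differentiated from these same lines in culture, through embryoid bodies. The methods give independent cultures for the arrays of a group. Since 1 line stands for each genotype, an effect of genotype and one of line cannot be told apart, and p-values measure the spread between cultures. Menin, the product of Men1, is a subunit of MLL histone methyltransferase complexes that place trimethylation on lysine 4 of histone H3. The question asked of the ribosomal protein genes was whether they differed between the genotypes and between the stem cells and the differentiated cells.

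Values are log2 signals as deposited, and a difference is a difference between group means on that log2 scale. A gene is called changed where the adjusted p of the limma fit over all 18193 genes was under 0.05. Men1 itself was at 9.90 and 9.97 in wild-type and 7.77 and 7.82 in menin-null mESCs, and at 10.06 and 9.92 against 7.95 and 8.02 in PILECs, so that both menin-null groups were low. Across all probe sets, arrays of the same group correlated at 0.993 to 0.997, and menin-null mESC array 2 correlated with wild-type mESC array 1 at 0.994. Of 8 stem cell markers, 8 fell in PILECs of either genotype, while 7 of 8 fibroblast markers rose in both and 8 (wild type) or 7 (menin-null) of 8 neuronal markers rose. Of 9 islet markers, 6 in wild-type and 5 in menin-null PILECs reached a signal of 7, the level taken as expressed, and Gcg, Iapp and Pdx1 stayed under it in all 4 groups. Of the same 9, 3 in wild-type and 4 in menin-null mESCs already reached it. Neuronal and fibroblast transcripts were thus high in the cells labelled islet-like. In RNA from such cultures, fewer cells of a type and less RNA per cell cannot be told apart.

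The sequences just upstream of the paralogues and their parent genes are shown because paralogues such as Rpl39l moved apart from their parents in differentiation. RefSeq windows (GRCm38.p6) were found for 44 of the 50 genes, and Rps4l and Rpl7 were among those without one. Rpl22, which held none of the 3 motifs below in its 120 bases, Rps4x, which held 2 GC boxes, and Rpl3l, whose parent Rpl3 is not among the 50 genes, are not printed. Each sequence holds the 120 bases before the most upstream annotated start, 5′ to 3′ on the gene's strand. Capitals mark CCGGAAG (the core bound by Ets family factors), GGGCGG (the GC box) and TATAAA (the TATA box). Both strands were searched, and the capitals of Rpl22l1 are 2 overlapping matches to the TATA box, 1 on each strand.
Rpl39l (chr16:10170108-10170227, plus strand): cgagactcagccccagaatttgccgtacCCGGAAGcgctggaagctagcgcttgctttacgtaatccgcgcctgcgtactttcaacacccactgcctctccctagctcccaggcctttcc
Rpl39 (chrX:37085223-37085342, minus strand): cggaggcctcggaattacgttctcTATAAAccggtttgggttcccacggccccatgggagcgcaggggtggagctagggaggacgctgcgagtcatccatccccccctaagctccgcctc
Rps27l (chr9:66945966-66946085, plus strand): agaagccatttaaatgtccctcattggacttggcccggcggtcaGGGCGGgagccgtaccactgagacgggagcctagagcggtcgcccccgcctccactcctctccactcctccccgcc
Rps27 (chr3:90213649-90213768, minus strand): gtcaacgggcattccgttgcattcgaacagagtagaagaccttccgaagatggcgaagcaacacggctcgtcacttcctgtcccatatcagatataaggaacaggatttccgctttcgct
Rpl22l1 (chr3:28805388-28805507, plus strand): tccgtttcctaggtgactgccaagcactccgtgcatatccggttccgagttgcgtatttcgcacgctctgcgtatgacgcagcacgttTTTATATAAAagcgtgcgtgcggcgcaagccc
Rpl7l1 (chr17:46782657-46782776, minus strand): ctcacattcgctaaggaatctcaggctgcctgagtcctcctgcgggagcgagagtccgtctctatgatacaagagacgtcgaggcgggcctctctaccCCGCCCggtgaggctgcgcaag
In the pairs where both genes had a window, paralogue and parent did not hold the same motifs in these 120 bases. Rpl39l held CCGGAAG and no TATA box, and Rpl39 held TATAAA and no CCGGAAG. Rps27l and Rpl7l1 each held 1 GC box, and Rps27 held none of the 3 motifs in these letters. In windows from 250 bases before to 50 after the start, CCGGAAG occurred in 21 of 44 member windows (47.7%), against 9.14% of all 27025 windows of that length. GGGCGG occurred in 56.8% of member windows and 35.9% of all windows, and TATAAA in 13.6% and 14.2%. A match describes the letters and says nothing of binding.

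Few ribosomal protein genes were called between menin-null and wild-type cells, and few genes of any kind were. In mESCs 0 of the 50 genes were called in limma, where 2 had an unadjusted p under 0.05. The background was 1.29% of all genes called higher and 2.36% called lower. The differences (menin-null minus wild type) ran from -0.30 for Rpl3l to 0.32 for Rpl39l, with a median of -0.02 beside 0.01 over all genes. For 45 of the 50 genes the 95% interval of the difference lay within 0.5 of 0. For the 34 ribosomal proteins whose probe set had a mean signal of at least 13, the differences lay between -0.10 and 0.05, and all 34 intervals lay within 0.5 of 0.

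In PILECs 2 of the 50 genes (4%) were called lower in menin-null cells and 0 higher, with 4 at an unadjusted p under 0.05. The background was 4.42% lower and 2.26% higher. The median difference was -0.03 beside -0.01 over all genes, and 44 of the 50 intervals lay within 0.5 of 0. Both calls were of genes that also fell in differentiation.

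Rpl14, a protein of the large subunit, read 8.03 and 7.85 in wild-type and 7.26 and 7.47 in menin-null PILECs. The groups did not overlap, and the difference was -0.58 ± 0.12 (SE, n = 2 per group, limma adjusted p = 0.0351). On the brightest of the 5 probe sets that list Rpl14 together with other symbols the difference was -0.08 (adjusted p = 0.664). Adjusted p-values of probe sets other than the chosen ones come from separate limma fits over all probe sets with 1 symbol, or over all with any symbol where the probe set lists several.

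Rpl7l1, which takes part in assembly of the large subunit, read 10.35 and 10.36 in wild-type and 9.91 and 9.999 in menin-null PILECs. Both wild-type arrays were above both menin-null arrays, and the difference was -0.40 ± 0.08 (SE, limma adjusted p = 0.0353). Its other probe sets gave -0.33 and -0.42. Both calls stayed when either array of menin-null mESCs was left out. Leaving out either array of wild-type mESCs, of wild-type PILECs or of menin-null PILECs ended both of them, and Rpl39l was called instead when menin-null PILEC array 1 was dropped (difference -0.52, adjusted p = 0.0433). Markers of other cells moved in the same comparison. Of 8 mESC markers 5 were lower in menin-null PILECs (median difference -0.78), as were 6 of 8 striated muscle markers (-1.74) and 5 of 9 proliferation markers (-0.44), and 0 of these 3 lists' genes were higher. Of 8 fibroblast markers 2 were lower and 1 higher, and of 8 liver and visceral endoderm markers 1 was lower and 1 higher. Pou5f1, a stem cell factor, read 9.09 and 8.72 in wild-type and 8.03 and 8.15 in menin-null PILECs. The part of these markers in the result was not tested.

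**Figure D1:**
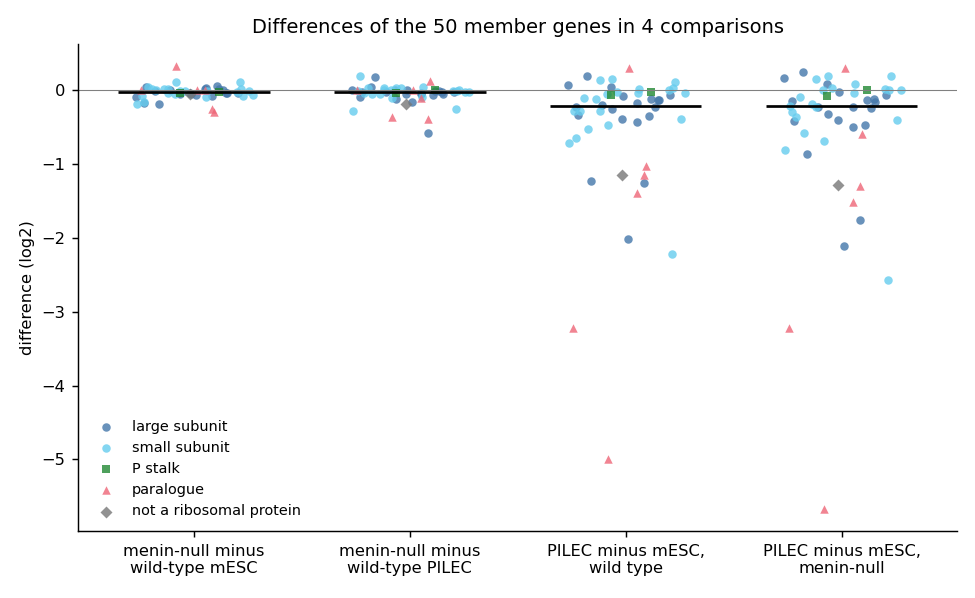
Each point is 1 of the 50 genes, and the y axis is the log2 difference between group means in the comparison named below it. Bars are medians and colours give the role of the protein. The genotype comparisons lie within 0.6 of 0, while the differentiation comparisons spread down to -4.99 (wild type) and -5.67 (menin-null).

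From mESCs to PILECs the genes moved far more, and mostly downward. In wild-type cells 25 of 50 fell and 1 rose, with 28 at an unadjusted p under 0.05, where 35.3% of all genes fell and 27.8% rose. In menin-null cells 25 fell and 2 rose, where 36.1% of all genes fell and 28.9% rose. The share that fell, 50% in both genotypes, was thus above the background, and the share that rose, 2% and 4%, far below it. For the 43 ribosomal proteins that were not paralogues, the share that fell was 44.2% in both genotypes. For the 34 of these whose probe set had a mean signal of at least 13 it was 35.3% and 38.2%, near the background. Median differences of the 50 genes were -0.22 and -0.22, beside -0.08 and -0.07 over all genes. These medians depended on the probe sets. They were -0.12 and -0.13 with probe sets of several symbols allowed, and -1.02 and -0.83 over the 27 genes left once probe sets marked as shared between transcripts (suffix s, x or a) were dropped. The comparisons use different arrays, and the fits share 1 estimate of the spread. 24 genes fell in both genotypes and Rpl22l1 rose in both. Rps27 was called only in wild-type cells, Rpl11 and Rpl39 only in menin-null cells, and 22 genes in neither.

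Rpl39l and Rps4l, both paralogues, had the largest changes, followed by Rps25 and Rpl12 of the standard ribosome. Of the 6 paralogues 5 fell, and the median of the 6 was -1.28 (wild type) and -1.40 (menin-null). Of the 43 ribosomal proteins that were not paralogues 19 fell in wild-type cells and 0 rose, with a median of -0.14, and 19 fell and 1 rose in menin-null cells, with a median of -0.16. No test was made between these sets, because their members share arrays and were listed with earlier results known.

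Rpl39l, a paralogue of the X-linked Rpl39 known from male germ cells and embryonic stem cells, had the largest change of the 50. It read 11.97 on both wild-type mESC arrays and 12.29 and 12.30 in menin-null mESCs, then 6.96 and 7.01 in wild-type and 6.78 and 6.46 in menin-null PILECs. PILEC signals were near or under the level of 7 taken as expressed. The differences were -4.99 ± 0.11 in wild-type cells (a 31.7-fold lower signal, limma adjusted p = 3.3e-08) and -5.67 ± 0.11 in menin-null cells (51.0-fold, adjusted p = 2.1e-08). Its parent Rpl39 read 7.34 and 7.30 in wild-type mESCs and 7.54 and 7.48 in wild-type PILECs, a difference of 0.19 (adjusted p = 0.0591), and 0.24 in menin-null cells (adjusted p = 0.0234). A brighter probe set that lists Rpl39 with another symbol was 0.33 higher in wild-type and 0.42 higher in menin-null PILECs (limma adjusted p = 0.0123 and 0.00343).

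Rps4l, a copy of the X-linked Rps4x, read 13.58 and 13.54 in wild-type and 13.56 and 13.56 in menin-null mESCs. In PILECs it read 10.52 and 10.16 (wild type) and 10.45 and 10.24 (menin-null), well below all mESC arrays and overlapping between genotypes. The differences were -3.22 ± 0.13 (SE, wild type) and -3.21 ± 0.13 (menin-null), 9.31-fold and 9.28-fold lower signals (limma adjusted p = 2.6e-07 and 2.2e-07). Rps4x differed by -0.04 and -0.01 (adjusted p = 0.701 and 0.948), and the sign of both values turned under another scaling.

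Rps27l, a paralogue of Rps27 known as a p53 target, read between 13.77 and 13.78 on all 4 mESC arrays. It read 12.36 and 12.39 in wild-type and 12.23 and 12.29 in menin-null PILECs. Differences were -1.40 ± 0.07 and -1.51 ± 0.07 (SE, limma adjusted p = 1.0e-06 and 6.3e-07), and its other probe sets fell too, with differences of -0.93 and -1.07 in wild-type cells. Rps27 read 8.50 and 8.44 in wild-type mESCs against 7.98 and 7.66 in wild-type PILECs. It fell by 0.66 in wild-type cells (adjusted p = 0.00502), and its difference in menin-null cells was -0.30 (adjusted p = 0.11). A brighter probe set that lists Rps27 with other symbols gave -0.06 and -0.01.

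Rpl7l1 read 11.45 and 11.55 in wild-type mESCs and 10.35 and 10.36 in wild-type PILECs, with differences of -1.15 and -1.29 in the 2 genotypes (limma adjusted p = 6.3e-06 and 3.0e-06). All 3 of its probe sets fell, with differences from -1.15 to -1.53 in wild-type cells. Its parent Rpl7, a protein of the large subunit, differed by 0.07 and 0.16 and was not called in either genotype.

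Rpl22l1 moved the other way. It read 12.43 and 12.48 in wild-type mESCs and 12.77 and 12.74 in wild-type PILECs, 0.30 ± 0.08 higher (SE, limma adjusted p = 0.013), and was 0.29 higher in menin-null cells (adjusted p = 0.0138). Its parent Rpl22, an RNA-binding protein of the large subunit that is known to hold Rpl22l1 down, read 14.28 and 14.25 in wild-type mESCs and 13.86 and 13.81 in PILECs. Rpl22 fell on this probe set (differences of -0.43 and -0.51, adjusted p = 0.00107 and 4.2e-04) and on another (-0.83 and -0.83). The remaining Rpl22 probe set went the opposite way, from 9.97 and 9.80 to 11.95 and 11.99 in wild-type cells, 2.08 higher, and 1.44 higher in menin-null cells. With the mean of all its probe sets Rpl22 was 0.27 higher in wild-type cells, so that its direction depends on the probe set.

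Rpl3l, the paralogue of Rpl3 found in heart and skeletal muscle, read 4.73 to 5.92 on the 8 arrays, under the level taken as expressed. It fell within that range (differences of -1.02 and -0.60, limma adjusted p = 3.9e-04 and 0.00746), while 7 of 8 striated muscle markers rose in wild-type PILECs. Rps19bp1, the nucleolar protein outside the ribosome, read 10.65 and 10.60 in wild-type mESCs and 9.54 and 9.43 in wild-type PILECs and fell (differences of -1.15 and -1.28, limma adjusted p = 5.5e-06 and 2.7e-06).

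**Figure D2:**
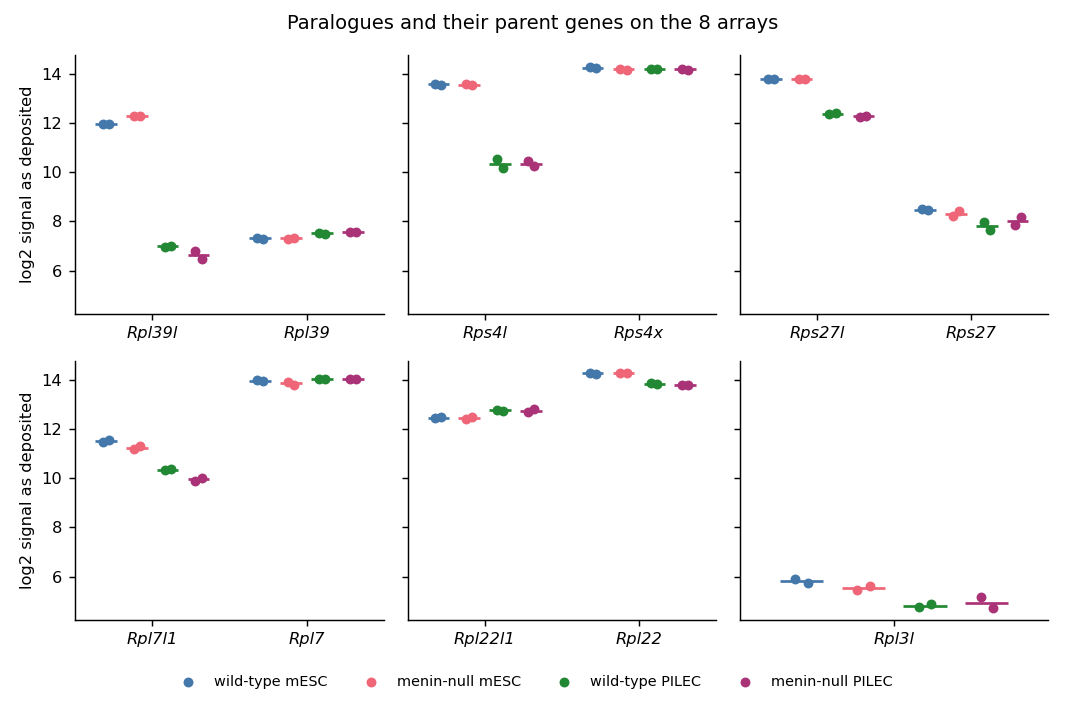
Points are the log2 signals of the 8 arrays as deposited and bars the group means, for the 6 paralogues and the 5 parent genes with a usable probe set. Rpl39l drops from about 12 to about 7 and Rps4l from 13.6 to 10.3, while Rpl39 and Rps4x move by 0.24 or less on the probe sets drawn. Heights compare arrays of 1 gene and not different genes.

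The proteins of the standard ribosome differed little where the chosen probe set was bright. The limit of 13 used here was chosen after the values were seen. Of 34 such genes 12 fell in wild-type cells (35.3%, beside 35.3% of all genes) and 0 rose (beside 27.8%). Differences ran from -0.53 to 0.14, with a median of -0.12. In menin-null cells 13 fell (38.2%, beside 36.1% of all genes) and 0 rose (beside 28.9%). Differences there ran from -0.58 to 0.19, with a median of -0.11. Rpsa, a small-subunit protein that is also known as a laminin receptor, marked the low end, at 14.56 and 14.60 in wild-type mESCs and 14.04 and 14.07 in wild-type PILECs. Of 148 other genes with a mean signal of at least 13, 60 fell (40.5%) and 46 rose (31.1%) in wild-type cells. Signals over this limit thus moved in both directions on these arrays. The 34 ribosomal proteins had means from 13.76 (Rps19) to 14.84 (Rpl41), and the 148 genes were not matched to them in signal beyond the limit. The highest value in the table was 15.2. Whether the scale compresses differences near its top was not tested.

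The P stalk recruits elongation factors to the ribosome, and its proteins differed little. Rplp0 read 14.04 and 14.04 in wild-type mESCs and 13.96 and 13.98 in wild-type PILECs, a difference of -0.07, and -0.08 in menin-null cells. Rplp2 differed by -0.03 and -0.003. Neither was called (limma adjusted p between 0.392 and 0.978). Rpl11, which with Rpl5 and 5S RNA can hold Mdm2, differed by -0.17 in wild-type cells (adjusted p = 0.0804) and fell by 0.24 in menin-null cells (adjusted p = 0.0251). Among genes mutated in Diamond-Blackfan anaemia, an inherited failure of red cell production, 11 of 19 were measured. In each genotype 3 of them fell (27.3%, beside 35.3% and 36.1% of all genes) and 0 rose, with medians of -0.02 and -0.01.

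The larger falls within the standard ribosome came from among 9 genes whose chosen, and thus brightest, usable probe set had a mean signal under 13. They were Rpl12, Rpl14, Rpl27a, Rpl37, Rpl39, Rps16, Rps25, Rps27 and Rps6, and their median difference was -0.71 (wild type) and -0.81 (menin-null). In wild-type cells 7 of them fell (77.8%, beside 35.3% of all genes) and 0 rose (beside 27.8%). In menin-null cells 6 fell (66.7%, beside 36.1% of all genes) and 1, Rpl39, rose (beside 28.9%). Rpl37 was not called in either genotype. Rps16 fell in both but read 3.77 to 4.57 on the 8 arrays, under the level of 7 taken as expressed. Rpl27a and Rps6 each had a second, dimmer probe set, which differed by -0.05 and -0.12 in wild-type cells and was not called. Rps25, needed for initiation at some internal ribosome entry sites, read 10.29 and 10.32 in wild-type mESCs and 8.13 and 8.05 in wild-type PILECs. In menin-null cells it read 10.43 and 10.39, then 7.76 and 7.91, and the differences were -2.22 ± 0.09 and -2.57 ± 0.09 (SE, limma adjusted p = 2.2e-07 and 1.0e-07).

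Rpl12, part of the base of the P stalk, fell from 10.92 and 10.88 to 8.94 and 8.82 in wild-type cells, with differences of -2.01 and -2.11. Rpl14 (-1.26 and -1.76) and Rpl27a (-1.24 and -0.87) fell in both genotypes. Rps6, the small-subunit protein phosphorylated by S6 kinases downstream of mTOR, read 8.95 and 8.82 in wild-type mESCs and 8.37 and 7.97 in PILECs, and fell in both genotypes (-0.71 and -0.81).

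These falls were not seen to the same size elsewhere on the array. All 9 genes were also listed on brighter probe sets with several symbols, among them pseudogenes and predicted genes, which the rule leaves out. There the wild-type difference was -0.16 for Rps25 (adjusted p = 0.136), -0.05 for Rpl27a and -0.02 for Rps6, each on its brightest probe set. Rpl12 differed by -0.45 and Rpl14 by -0.49, and both were called. Rpl39 was 0.33 higher (adjusted p = 0.0123) and Rps16 differed by -0.01. Probe sets with several symbols can take signal from more than 1 gene.

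The same split ran through genes with several probe sets of their own. The 50 genes had 106 probe sets with 1 symbol, 24 genes having more than 1. The 25 further probe sets with a mean of at least 13 had a median difference of 0.003 in wild-type cells, with 6 lower and 3 higher. The 31 further ones under 13 had a median of -0.38, with 18 lower and 4 higher. Rps24, a small-subunit protein whose mRNA is known in several splice forms, was not called on its chosen probe set, at 14.26 and 14.26 in wild-type mESCs and 14.33 and 14.39 in PILECs. Another Rps24 probe set went from 10.93 and 10.96 to 7.81 and 7.71, a difference of -3.18 (limma adjusted p = 5.8e-08).

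Rps10 differed by 0.03 on its chosen probe set and fell by 1.79 on one with signals of 8.63 and 8.63 in mESCs. In menin-null cells 1 further bright Rps10 probe set was 0.23 higher (adjusted p = 0.041) and another 0.24 lower (adjusted p = 0.035). Rps3, a small-subunit protein with a separate role in DNA repair, fell by 0.28 on its chosen probe set and was 0.94 higher on another in wild-type cells, from 9.36 and 9.39 to 10.39 and 10.23. Rpl41, Rps9 and Rpl35, picked after their values were seen, likewise had a dim probe set that fell, with differences of -1.78, -1.62 and -1.71, beside -0.23, -0.04 and -0.34 on the chosen one. Which transcript forms or stretches these probe sets detect is not given in the sources used here.

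**Figure D3:**
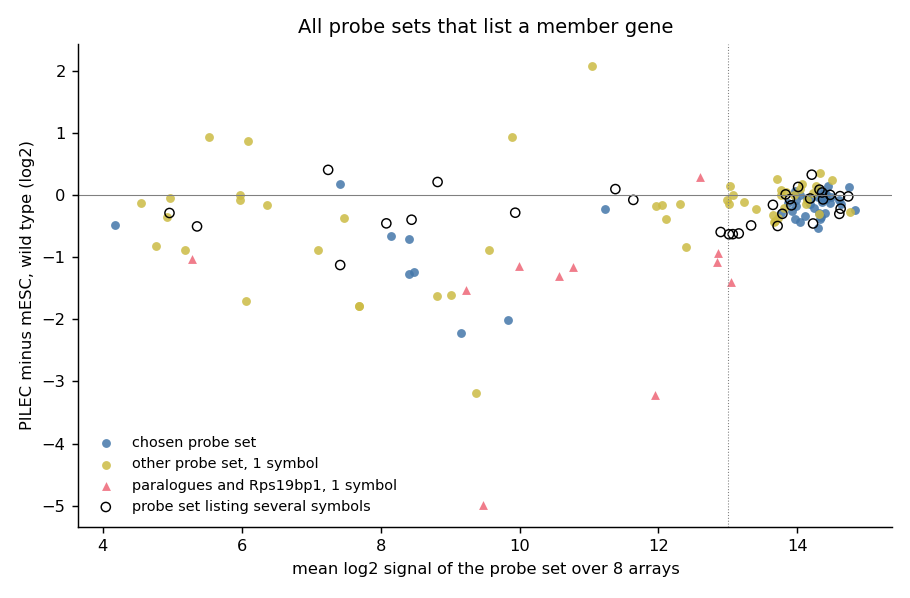
Each mark is a probe set that lists a member gene, with its mean log2 signal over the 8 arrays on the x axis and its wild-type difference (PILECs minus mESCs, log2) on the y axis. To the right of the dotted line at 13 the marks lie between 0.36 and -0.63, except for Rps27l at -1.40, and to its left they spread from 2.08 to -4.99. Open circles are probe sets with several symbols.

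The differentiation differences of the 2 genotypes lay close to each other. The test of the difference between the menin-null effects in PILECs and mESCs, which equals that between the 2 differentiation differences, called 0 of the 50 genes in limma, with 3 at an unadjusted p under 0.05 (Rpl14, Rpl39l and Rps25). The background was 1.5% higher and 1.57% lower. The lowest adjusted p was 0.0651, for Rpl39l, whose fall was 0.69 ± 0.16 (SE) greater in menin-null cells. Its menin-null mESC arrays were both above and its menin-null PILEC arrays both below the wild-type ones. Neither of these steps was called alone (differences of 0.32 and -0.36, adjusted p = 0.171 and 0.099). For 42 of the 50 genes the 95% interval of the difference of effects lay within 0.5 of 0. Rpl39l was called when menin-null PILEC array 1 was dropped (difference of effects -0.85, adjusted p = 0.0379), and 0 genes when any other single array was. Of the cell type markers, 3 of 8 mESC, 5 of 8 striated muscle, 2 of 8 neuronal and 2 of 9 proliferation markers were called lower in this test. Of 8 liver and visceral endoderm markers 1 was called lower and 1 higher, and 1 of 8 fibroblast markers was called higher. The part of these markers in the result was not tested.

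**Figure D4:**
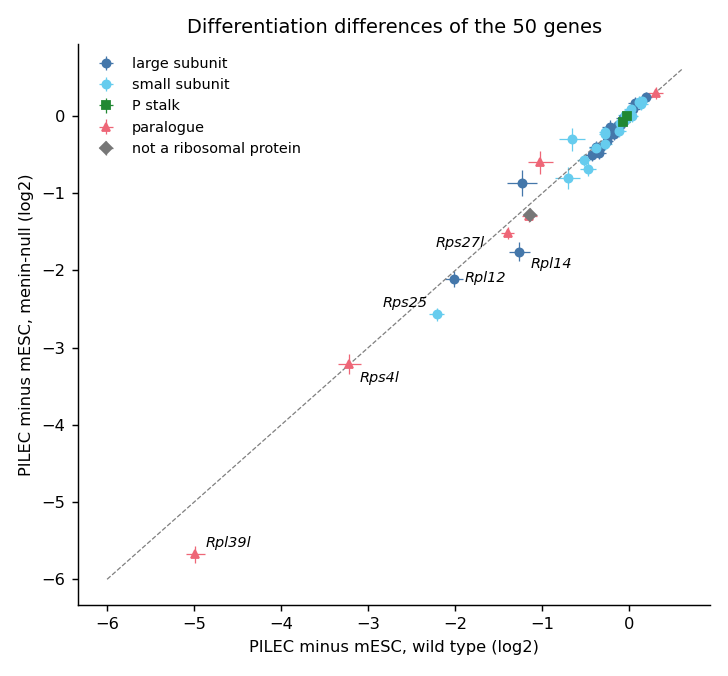
The difference between PILECs and mESCs in wild-type cells (x axis, log2) is set against that in menin-null cells (y axis, log2) for the 50 genes, with standard errors from limma and colours for the role of the protein. Points lie close to the dashed line of equal values, and Rpl39l lies farthest below it. The 2 axes use separate arrays.

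Lists of assembly factors, polymerase I genes, mitochondrial ribosomal proteins and translation factors had lower medians than the 43 non-paralogue ribosomal proteins (-0.14 and -0.16). The 9 ribosomal proteins with a chosen probe set under 13 had medians of -0.71 and -0.81, lower than the translation factors (-0.30 and -0.36). The part of signal level in these comparisons was not tested. All 33 measured nucleolar assembly factors fell in both genotypes, with medians of -2.16 and -2.30. Rrp12, which takes part in export and maturation of the subunits, read 9.99 and 9.91 in wild-type mESCs and 6.77 and 6.67 in wild-type PILECs, with differences of -3.23 (wild type) and -3.33 (menin-null). Utp20, of the small-subunit processome, differed by -3.04 and -3.32, and Lyar, a nucleolar growth regulator, by -2.99 and -3.26.

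All 18 genes of the RNA polymerase I machinery, which makes the large ribosomal RNAs, fell in both genotypes, with medians of -1.41 and -1.65. The polymerase subunits Polr1e (differences of -2.67 and -2.84) and Polr1a (-2.59 and -2.67) and Tcof1, which encodes treacle (-2.46 and -2.51), had the largest differences. Of 26 translation factors and other 5′ TOP genes 17 fell and 3 rose in wild-type and 16 fell and 4 rose in menin-null cells, with medians of -0.30 and -0.36. Eif3b, Eif3d and Eif3c, subunits of initiation factor eIF3, fell in wild-type cells (differences of -1.38, -1.07 and -0.95), as did Eef1d of the elongation factor complex that carries tRNA (-1.25). In the same cells 6 of the 26 had a positive difference, among them Tpt1 (0.35), Eif4a2 (0.35) and Eef2 (0.21).

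Mitochondrial ribosomal proteins, which form the separate ribosome of that organelle, fell in 67 of 76 cases in wild-type and 68 of 76 in menin-null cells, with medians of -1.06 and -1.14. Mrps18b differed by -2.64 and -2.57 and Mrpl1 by -2.37 and -2.19. Of 10 genes of the Myc family and its partners 5 fell and 4 rose in both genotypes. Mycn read 12.54 and 12.64 in wild-type mESCs and 10.08 and 10.20 in wild-type PILECs and fell by 2.45, and Myc fell by 2.20. Mxd4, a Myc antagonist, rose by 2.43. All 9 proliferation markers fell in both genotypes, with medians of -1.99 and -2.53, and the part of this in any of these results was not tested.

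The same lists were compared between genotypes in each cell type. The limma test of the difference between the menin-null effects called 0 genes in each of the 5 lists. There 9 assembly factors, 3 polymerase I genes, 10 mitochondrial ribosomal proteins, 1 translation factor and 1 Myc family gene had an unadjusted p under 0.05. In mESCs 1 assembly factor (Nop56, -0.49), 2 genes of the polymerase I machinery (Taf1d, -0.52, and Polr1e, -0.46), 1 mitochondrial ribosomal protein (Mrpl17, -0.47), 0 translation factors and 0 Myc family genes were called in limma, where 2, 4, 13, 2 and 1 had an unadjusted p under 0.05. In PILECs 8 of 33 assembly factors fell (24.2%, beside 4.42% of all genes), with 22 at an unadjusted p under 0.05 and a median of -0.25. They moved beside the mESC, striated muscle and proliferation markers given above for the same comparison (medians of -0.78, -1.74 and -0.44), whose part in this was not tested. The largest differences were those of Ftsj3 (-0.72), Dkc1 (-0.59) and Nop56 (-0.57). This count was 2 or fewer when 1 wild-type array of either cell type was dropped, with 0 for wild-type PILEC array 2. It was 2 and 3 when menin-null PILEC array 1 and array 2 were dropped. Polr1e (-0.62), Eef1d (-0.38) and Mrpl13, Mrpl49 and Mrpl54 (-0.43, -0.42 and -0.36) fell, which left 17 of 18, 25 of 26 and 73 of 76 genes of their lists not called. The 43 ribosomal proteins that were not paralogues had a median of -0.02 in that comparison.

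**Figure D5:**
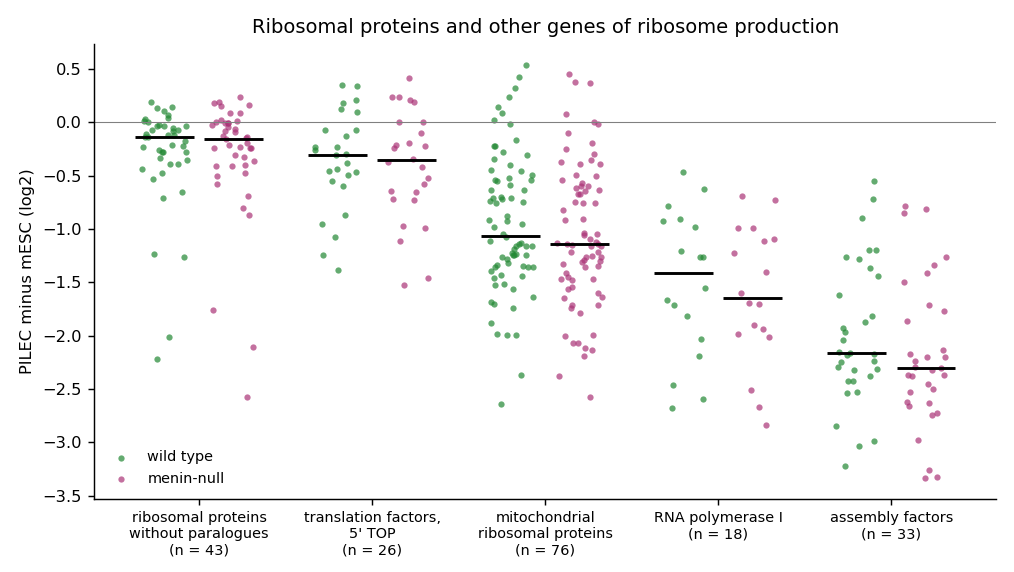
Each point is 1 gene, with its difference between PILECs and mESCs (log2) on the y axis, for both genotypes. Black bars are medians. The 43 ribosomal proteins centre on -0.14 and -0.16 and the 33 assembly factors on -2.16 and -2.30.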

How the data were processed

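Biotin-labelled cRNA from 6 µg of total RNA per sample was hybridised to Affymetrix mouse genome arrays, 1 array per sample and 2 per group. The values deposited by the authors were log2 signals of every probe set on every array, from 3.26 to 15.2. RMA and Partek are named, without versions, in the submitters' processing notes, whereas the study's methods name Microarray Analysis Suite, and which of them made the values is not given in the sources used here. The number of arrays limits the precision, and an exact permutation test of 2 against 2 arrays cannot go below p = 0.333.

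Of 45101 probe sets, 64 controls, 9160 without and 932 with several symbols in the platform annotation were left out, which left 34945 probe sets of 18193 genes. The brightest probe set stood for a gene. All 50 members matched GRCm38.p6 by Entrez identifier, and 0 symbols needed an update. 33 of the 50 chosen probe sets carried a suffix (s, x or a) for probes shared between transcripts.

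A mean per group was fitted with limma 3.58.1 in R 4.3.3 to all 8 arrays, with eBayes (residual degrees of freedom 4, prior 3.72) and Benjamini-Hochberg adjustment over all genes. The script was tested on simulated data. Plots used Python 3.11.15, pandas 2.3.3 and matplotlib 3.10.9. In each comparison the 10 called members with the largest difference were named, together with the P stalk, 5S RNP, paralogues, their parents, Rps19bp1, members with a probe set called in the opposite direction and up to 3 genes of each other list. Rpsa, Rpl37, Rps16, Rpl41, Rps9 and Rpl35 were added after their values were seen. The members and lists were chosen with earlier results of these data known. Alternatives were another scaling, probe set choice, filter, variance model, arrays in the fit, the replicate number as a block and leaving out each array.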

Additional observations from a re-analysis of the deposited data

How the results depend on the processing

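Counts of genes called and medians over the 50 genes were recomputed with 1 choice changed at a time. Both differentiation counts stayed within 1.5 times their value under every alternative run, between 19 and 38, and both medians stayed negative. Runs held from 27 to 50 genes, so these counts are not shares of the same set. The medians ran from -1.0223 to -0.1207 (wild type) and from -0.8256 to -0.1291 (menin-null). Under a further quantile normalisation the medians were -0.0057 (genotypes in PILECs), -0.1729 (wild-type differentiation) and -0.1787 (menin-null differentiation), 1 gene was called in the difference of effects, and Rps4x became 0.024 and 0.0475 in the 2 differentiation comparisons. With each array centred on its median, which moved the median of all genes by at most 0.05, the medians were -0.0088 (genotypes in mESCs), 0.0174 (genotypes in PILECs), -0.2658, -0.2433 and 0.0235 (difference of effects). With the mean of a gene's probe sets the differentiation medians were -0.2431 and -0.2392, Rpl22 turned to 0.2724 and 0.0349, and Rpl7 to -0.0209 in wild-type cells.

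When probe sets with the suffix s, x or a were dropped, 27 genes were left, of which 22 (wild type) and 20 (menin-null) were called. Their medians were -1.0223 and -0.8256 in differentiation, -0.06 between genotypes in PILECs and -0.0648 for the difference of effects, with 1 call there, and Mrpl17 turned to 0.0602 between genotypes in mESCs. With a group mean of at least 7 (48 genes) the differentiation medians were -0.1912 and -0.2021, with 1 call in the difference of effects. A variance trend gave 1 call between genotypes in mESCs, 4 in PILECs and 1 in the difference of effects, and 37 and 38 in differentiation. Between genotypes in PILECs, 0 genes were called with no moderation of the variances and 1 with only the arrays compared.

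Of the alternatives chosen after seeing the data, allowing probe sets with several symbols gave medians of -0.1207 and -0.1291 in differentiation, with 22 and 23 calls, and 1 call between genotypes in PILECs, and Rpl27a turned to 0.0434 in menin-null differentiation. Leaving out paralogues and Rps19bp1 gave -0.1371 and -0.1585, and 1 call between genotypes in PILECs.

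Replicate numbers are shared by the groups, but the correlation of same-numbered arrays' deviations ran from -0.2765 to 0.2088, so the numbers were not taken to pair the arrays. With the replicate number as a block the counts were 0 and 0 between genotypes, in mESCs and PILECs, 24 and 25 in differentiation and 0 in the difference of effects.

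Leaving out 1 array gave 0 to 2 calls between genotypes in PILECs, 0 to 1 in the difference of effects, 20 to 26 and 21 to 25 in differentiation, and differentiation medians from -0.2295 to -0.1821 and from -0.2236 to -0.1913. Between the menin-null groups Rplp2 then ranged from -0.0358 to 0.0302 and Rps4x from -0.0419 to 0.029. The cause of these shifts was not tested. Across the other gene lists, assembly factors called in differentiation numbered 28 to 33, polymerase I genes 13 to 18, translation factors 11 to 24, Myc family genes 8 to 10 and mitochondrial ribosomal proteins 56 to 72, and assembly factors called between genotypes in PILECs 0 to 21.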
